A study of Mus musculus with 12 samples.

Results

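Haemoglobin and red cell genes were followed in the left ventricle (LV) of adult mice. The 6 genes were Hba-a1 and Hba-a2 (alpha globin), Hbb-bs and Hbb-bt (beta globin), Alas2 and Slc4a1, and their per-library levels were read as a measure of the blood carried in the tissue. They were chosen by name and found by matching Ensembl identifiers to mouse symbols, and all 6 were among the 46983 genes of the count files. RNA was taken from the LV of 12 offspring aged 12 weeks, 3 in each of 4 groups that combined the genotype of the mouse (Wt or Hif1a+/-) with the pregnancy it came from (non-diabetic or diabetic). All mice were on the FVB background. Diabetic dams were Wt females made diabetic with streptozotocin, and the Hif1a+/- offspring carried 1 copy of the global Hif1a null allele tm1jhu from their sires, in every cell and not in the heart alone. The mice of a group came from several litters, and their litters and dams were not named for single libraries. The labels call the mice female and the study text male, and sex was used in no test.

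Haemoglobin carries oxygen and is built from alpha and beta globin chains, each holding a haem. In red cell precursors Alas2 makes the first and rate-limiting step of haem synthesis, a step that other tissues leave to Alas1. Slc4a1 (band 3) exchanges chloride for bicarbonate across the red cell membrane and ties that membrane to the spectrin skeleton. Mature mammalian red cells have no nucleus, and young ones (reticulocytes) still hold globin mRNA, so blood left in the chambers and vessels brings globin mRNA into a heart sample. In RNA from a whole piece of tissue, fewer red cells and less RNA per red cell cannot be told apart.

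What could be counted depended on sequence, since a read that fits several places was given to no gene. The stretches below hold the only base that differs between the coding sequences within each pair, in capitals. Inside the coding part, only reads that cover this base could tell the copies apart.

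Hba-a1: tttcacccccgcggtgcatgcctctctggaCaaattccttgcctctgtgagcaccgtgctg
Hba-a2: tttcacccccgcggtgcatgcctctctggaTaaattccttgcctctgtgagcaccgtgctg
Hbb-bs: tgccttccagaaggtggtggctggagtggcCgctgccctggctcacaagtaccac
Hbb-bt: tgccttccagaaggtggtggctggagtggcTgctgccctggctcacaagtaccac

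These are letters of the GRCm38 reference and not of FVB mice, at chr11:32284313-32284373 and chr11:32297130-32297190 on the plus strand and at chr7:103826668-103826722 and chr7:103812659-103812713 on the minus strand. Counted from the first base of the start codon, the alpha difference is C381T in a coding length of 429 bases and the beta difference is C417T in a coding length of 444 bases. Of the 75-base windows of the Hba-a1 transcript, 62.24% also occurred in Hba-a2, and 81.04% of the Hba-a2 windows occurred in Hba-a1. In the last 200 bases, where 3′-seq reads gather, 40.48% of the Hba-a1 windows and 38.1% of the Hba-a2 windows were shared. Most alpha globin windows there were therefore not shared. Hbb-bs and Hbb-bt shared 64.26% and 56.6% of their windows but 0% in the last 200 bases. Slc4a1 shared 0%. The last 200 bases of Alas2 lay wholly in sequence (100% of windows, on either strand) that transcripts of Apex2, a DNA repair gene overlapping the end of Alas2, also hold, and whether the authors counted by strand is not given in the sources used here. Apex2 itself stayed between 5.41 and 8.59 CPM in the 12 libraries, over which Alas2 ranged 43.3-fold.

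The genes lie at chr11:32283511-32284465 (Hba-a1), chr11:32296489-32297298 (Hba-a2), chr7:103826534-103828096 (Hbb-bs), chr7:103812524-103813996 (Hbb-bt), chrX:150547375-150570638 (Alas2) and chr11:102348824-102366203 (Slc4a1), and all are annotated as protein coding. The promoters of the members were searched for 4 short motifs on both strands. They were the CCAAT box, the CACCC box where factors of the KLF family can bind, the GATAA form of the GATA motif, and the ATATAA form of the TATA motif. RefSeq promoters of GRCm38.p6 were given for 5 of the 6 genes, all but Slc4a1. A beta globin, an alpha globin and the Alas2 promoter are shown over the 150 bases before the RefSeq start, with motif matches on either strand in capitals.

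Hbb-bs: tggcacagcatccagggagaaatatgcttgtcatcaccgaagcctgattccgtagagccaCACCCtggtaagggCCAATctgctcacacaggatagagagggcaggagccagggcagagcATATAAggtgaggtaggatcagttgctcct
Hba-a2: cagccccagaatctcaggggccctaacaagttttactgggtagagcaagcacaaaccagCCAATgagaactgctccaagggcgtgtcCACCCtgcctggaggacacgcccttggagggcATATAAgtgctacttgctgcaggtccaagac
Alas2: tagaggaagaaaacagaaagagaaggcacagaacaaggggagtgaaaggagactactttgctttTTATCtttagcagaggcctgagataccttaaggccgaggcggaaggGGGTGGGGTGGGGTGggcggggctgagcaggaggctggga

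The windows are chr7:103827929-103828078 (minus strand), chr11:32296342-32296491 (plus) and chrX:150547267-150547416 (plus), and no base lay in more than 1 motif. The RefSeq starts differ from the annotated gene bounds given above. By those bounds the Hbb-bs window lies wholly inside its gene, and the Hba-a2 and Alas2 windows lie partly inside theirs. In Hbb-bs the TATA motif began 30 bases before the start, the CCAAT box 76 bases and the CACCC box 90 bases before it. In Hba-a2 the boxes stood in the opposite order, CACCC at 63 bases and the CCAAT box at 91 bases. All 4 globin promoters held the CCAAT box, the CACCC box and the TATA motif, a combination found in 0.423% of 32851 promoters of the same length. The Alas2 window held CACCC on the other strand 3 times and GATAA on the other strand 86 bases before the start, and 3.99% of promoters held both of these motifs. The CACCC matches of Alas2 lie in the part of the window inside the annotated gene. Singly, the CCAAT box was in 24.5% of promoters, the CACCC box in 37.4%, the GATA motif in 13.3% and the TATA motif in 5.35%. A match is a string of letters in the reference and was not tested as a binding site.

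The libraries held between 16132442 and 39812939 counts on genes. Levels are given in CPM, which is counts per 1000000 of the library total scaled by TMM factors. The LV label fitted the data, since 7 ventricular cardiomyocyte markers led by Myh6, Actc1 and Tnnt2 summed to between 73783 and 85144 CPM in every library, against 25.2 to 70.8 CPM for 4 atrial markers. Hif1a itself was not lower in the mutants, at 47.9 to 71.8 CPM in the 6 Wt libraries and 64.7 to 89.3 CPM in the 6 Hif1a+/- libraries (log2 difference averaged over pregnancies 0.43, SE 0.09, adjusted p = 0.596 by edgeR). DESeq2 (adjusted p = 0.0314) and edgeR without a filter on low counts (adjusted p = 0.000314) called this difference. The deleted part of the allele is not given in the sources used here, and 3′ tags outside it do not check the genotype.

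Haemoglobin mRNA differed far more between single mice than between groups. The summed level of the 4 globin genes ranged 39.5-fold over the 12 libraries, from 179 to 7052 CPM. In the Wt non-diabetic group it was 7052 CPM in replicate 25, 476 in replicate 42 and 683 in replicate 89. In the Wt diabetic group it was 1710 CPM in replicate 50, 500 in replicate 7 and 484 in replicate 80. Hif1a+/- mice from non-diabetic pregnancies had 366, 400 and 351 CPM in replicates 14, 32 and 44, the tightest of the groups. Hif1a+/- mice from diabetic pregnancies had 696 and 712 CPM in replicates 66 and 72, and 179 in replicate 77, the lowest of all. Replicate 25 stood apart, with 0.702% of its counts on globin genes, against 0.018% to 0.163% in the other 11 libraries, whose range without it was 9.57-fold. Hence maternal diabetes in Wt, genotype after non-diabetic pregnancy, genotype averaged over pregnancies and the interaction are given below with and without that library.

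Hbb-bs, the main beta globin in these libraries by count, took between 2585 and 70169 counts. It stood at 4366, 291 and 430 CPM in Wt non-diabetic replicates 25, 42 and 89 and at 1098, 300 and 311 CPM in Wt diabetic replicates 50, 7 and 80. In the Hif1a+/- hearts it was at 226, 249 and 222 CPM after non-diabetic pregnancy (replicates 14, 32 and 44) and at 436, 463 and 114 CPM after diabetic pregnancy (replicates 66, 72 and 77). One library in each of 3 groups was therefore far from its partners, high in replicates 25 and 50 and low in replicate 77. The group means were 1696 ± 2314, 570 ± 458, 232 ± 14.6 and 338 ± 194 CPM in the same order (SD, n = 3), so that in the Wt non-diabetic group the SD exceeded the mean.

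Hba-a1, the alpha globin copy that took nearly all alpha counts, followed Hbb-bs library by library. It was at 2234, 163 and 222 CPM in the Wt non-diabetic hearts and at 515, 178 and 153 CPM in the Wt diabetic hearts, replicates in the order above. In Hif1a+/- hearts it was at 124, 130 and 115 CPM after non-diabetic pregnancy and at 223, 206 and 56.8 CPM after diabetic pregnancy. The same 3 libraries stood apart as for the beta chain.

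Hba-a2 could hardly be measured. It had 0 to 14 counts per library and 31 counts in all, against 86478 for Hba-a1, and 4 libraries had a count of 0. Most of its windows in the last 200 bases were not shared with Hba-a1, and the reason for its low count was not tested. A count of 0 allows up to 3 counts, for counting error only. The gene did not pass the filter on low counts, so 5 of the 6 members were tested. Its 14 counts in replicate 25 and at most 4 elsewhere stood in about the same proportion to Hbb-bs in both (0.2 per 1000 in replicate 25, and 0.17 per 1000 in the other 11 pooled).

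Hbb-bt, the second adult beta globin gene, was at 450, 22.3 and 30.4 CPM in the Wt non-diabetic hearts and 95.8, 22.4 and 20.2 CPM in the Wt diabetic hearts. After non-diabetic pregnancy Hif1a+/- hearts had 16.2, 20.8 and 14.1 CPM, and after diabetic pregnancy 36.2, 43.1 and 7.72 CPM. Its range over the libraries, 58.3-fold, was wider than that of Hbb-bs (38.3-fold).

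Alas2, the erythroid haem enzyme, was at 266, 14.6 and 21.2 CPM in the Wt non-diabetic hearts and 60.4, 17.1 and 12 CPM in the Wt diabetic hearts. Hif1a+/- hearts had 14.4, 12.9 and 10.2 CPM after non-diabetic pregnancy and 22.9, 21.2 and 6.14 CPM after diabetic pregnancy. Thus the haem enzyme of red cells was high and low in the same mice as the globins.

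Slc4a1, the band 3 anion exchanger, was near the limit of counting except in 1 mouse. It had 299 counts in replicate 25 (18.6 CPM), 7 in replicate 42 and 8 in replicate 89 of the Wt non-diabetic group. The Wt diabetic libraries had 29, 12 and 4 counts in replicates 50, 7 and 80. The Hif1a+/- libraries had 3, 2 and 1 counts after non-diabetic pregnancy and 20, 9 and 1 after diabetic pregnancy. Replicate 25 was 13.9-fold above the next library for Slc4a1, against 3.98-fold for Hbb-bs, 4.33-fold for Hba-a1, 4.7-fold for Hbb-bt and 4.4-fold for Alas2.

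**Figure D1:**
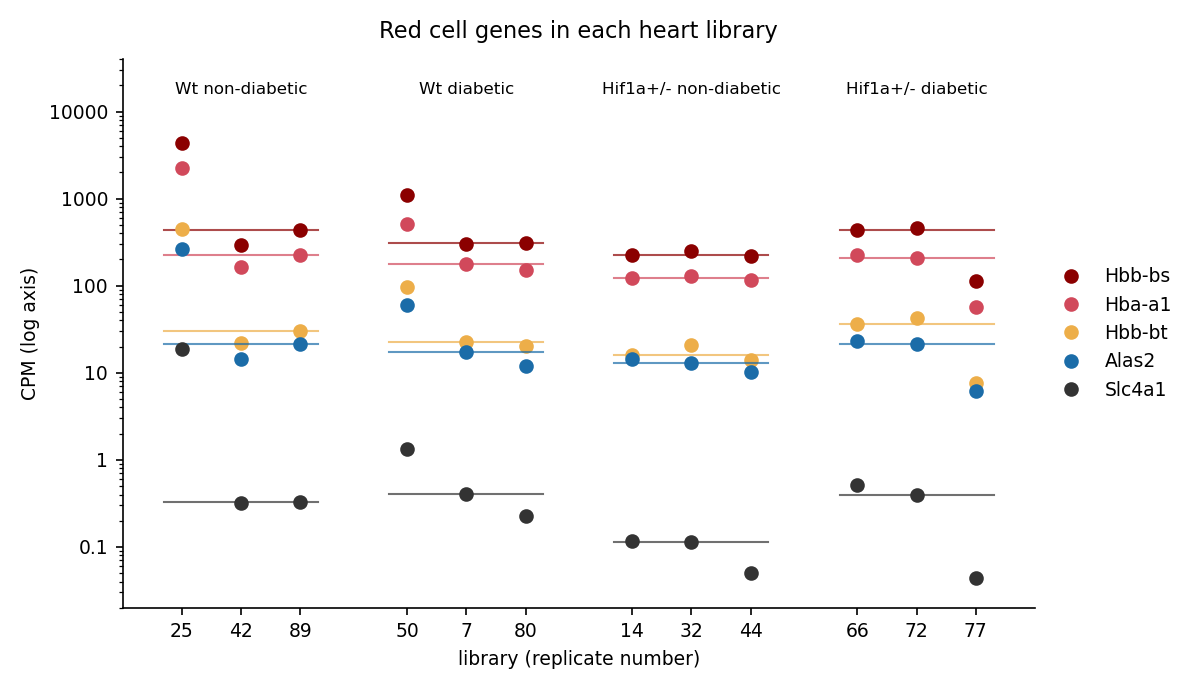
CPM on a log axis of 5 red cell genes in the 12 LV libraries, ordered by group, with replicate numbers below. Each point is 1 library and each line a group median. Hba-a2 is left out because 4 libraries had a count of 0. In all 5 genes replicate 25 is the highest point, replicate 50 the next highest and replicate 77 the lowest.

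Hba-a1 and Alas2 kept a narrow range of proportions to Hbb-bs while the level changed, and Hbb-bt and Slc4a1 were proportionally highest in replicate 25. Per 1000 counts of Hbb-bs, Hba-a1 had between 445 and 595 counts over the 12 libraries (CV 7.65%), though the level of Hbb-bs itself ranged 38.3-fold. Alas2 had between 38.8 and 63.5 (CV 13.1%). Hbb-bt had 103 in replicate 25 (95% exact interval 100.7 to 105.7) and between 63.7 and 93.0 in the other 11 libraries, whose pooled ratio was 79.7 and whose intervals reached at most 99.3. Slc4a1 had 4.26 counts per 1000 of Hbb-bs in replicate 25 (95% exact interval 3.79 to 4.77) and between 0.227 and 1.36 in the other libraries, whose pooled ratio was 0.962, and differed most. For both genes the interval in replicate 25 lay above that of each other library. These intervals cover counting error alone, and the ratio compares libraries, not genes, because a different part of each transcript could be counted.

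**Figure D2:**
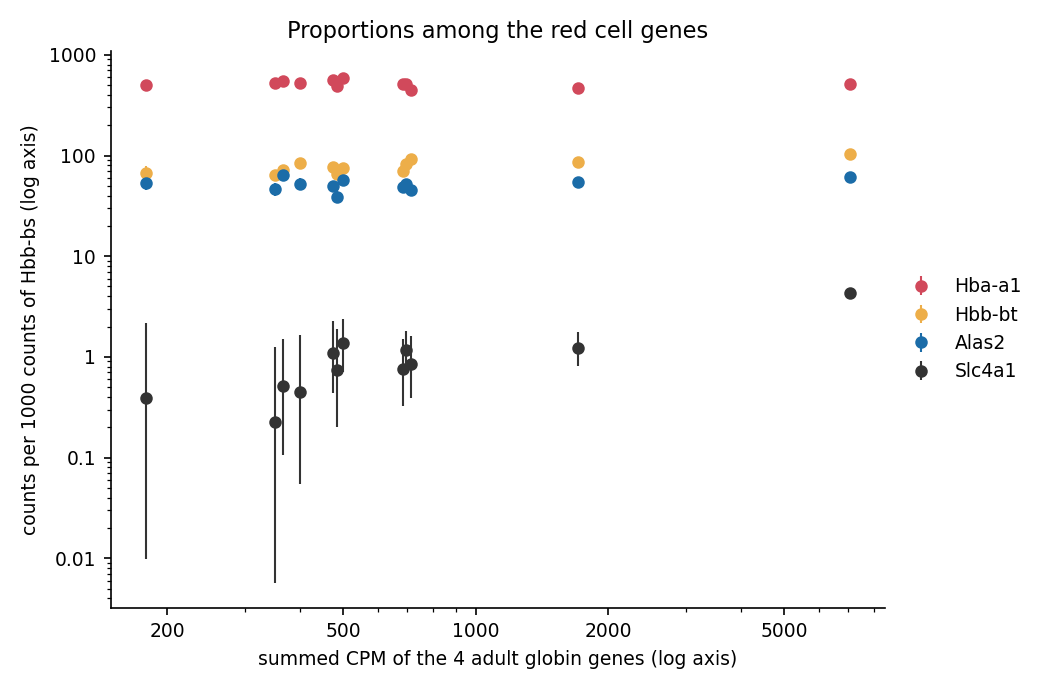
Counts of 4 genes per 1000 counts of Hbb-bs in each of the 12 libraries against the summed CPM of the 4 adult globin genes, both on log axes, with 95% exact intervals for counting error as bars. Hba-a1 stays between 445 and 595 and Alas2 between 38.8 and 63.5, while Hbb-bt (103) and Slc4a1 (4.26) are highest in the library with the most haemoglobin.

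Across the 12 libraries the levels of the members varied together. For the 10 pairs of the 5 genes without Hba-a2, Pearson's r of log2(CPM + 1) was between 0.926 and 0.997 and Spearman's rho between 0.902 and 0.972, and the largest adjusted p over all 15 pairs was 0.00089 for r and 0.0196 for rho (two-sided permutation tests with 100000 resamples, smallest possible p 1e-05). Within groups, after subtracting group means, the 10 correlations were between 0.906 and 0.997. After leaving out the 2 libraries farthest from the median, they were between 0.833 and 0.982. The 5 pairs with Hba-a2 had r between 0.911 and 0.976, which dropped to between 0.431 and 0.634 without those 2 libraries, so that the relation of Hba-a2 to the others rested largely on them.

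The share of reads aligned to several places, which is tallied in the same files and given to no gene, was also highest in replicate 25. It was 17.02% there, 14.25% in replicate 50 and between 12.37% and 14.13% in the other 10 libraries. Against the log2 haemoglobin sum, r was 0.912 (p = 0.00069) and rho 0.888 (p = 0.00026), as 1 relation tested by two-sided permutation over 12 libraries, and r within groups was 0.911. Without replicates 25 and 50, the libraries farthest from the median, r was 0.584 (permutation p = 0.081), so the relation rested on them. The part of globin reads in this tally was not tested.

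The study asked how maternal diabetes and Hif1a deficiency alter the offspring heart, and for these genes the question was whether red cell mRNA differed among the 4 groups. After non-diabetic pregnancy the 5 tested members were lower in Hif1a+/- than in Wt hearts without overlap between the groups, but no member passed the test. Of all 14706 tested genes, 2.26% were lower without overlap in this comparison, and the 5 members are not independent, since they followed each other in every library. Hbb-bs spanned 222 to 249 CPM in Hif1a+/- and 291 to 4366 CPM in Wt hearts, a log2 difference of -2.87 (SE 0.89, adjusted p = 1 by edgeR's quasi-likelihood test). Alas2 differed by -2.99 (SE 0.96) and Slc4a1 by -5.96 (SE 1.64), the latter from 1 to 3 counts per Hif1a+/- library. edgeR called 0 members and 0% of all genes here, with unadjusted p below 0.05 for all 5 members and 141 genes. DESeq2 called 1 gene (0.00369%) and not Hbb-bs, the only 1 of the 5 to which it gave an adjusted p. In the other direction, higher in Hif1a+/-, 2.55% of genes did not overlap.

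Without replicate 25 the size of this difference shrank and its direction stayed. Hbb-bs differed by -0.64 (SE 0.56), Hba-a1 by -0.65 (SE 0.52), Alas2 by -0.52 (SE 0.60) and Slc4a1 by -1.72 (SE 1.03) on the log2 scale, and edgeR called 0 of the 5 (each adjusted p = 1). In this fit 0 members had an unadjusted p below 0.05. The Wt libraries 42 and 89 remained above all 3 Hif1a+/- libraries for each of the 5 genes, the closest being Alas2 with 14.6 CPM in replicate 42 and 14.4 CPM in replicate 14. With 2 Wt libraries against 3, 6.28% of all tested genes were lower and 7.92% higher without overlap. Of the markers of other blood cells, the neutrophil and platelet sums were highest in replicate 25. The summed level of 10 neutrophil genes was 2.31 to 4.87 CPM in the Hif1a+/- group and 2.41, 5.23 and 32.3 CPM in the Wt group, so that the groups overlapped with and without replicate 25. That of 9 platelet genes was 16.4 to 17.7 CPM in Hif1a+/- and 20.1, 24 and 33.5 CPM in Wt. These platelet sums did not overlap, with or without replicate 25. Monocyte genes summed to 1.31, 2.59 and 2.88 CPM in Hif1a+/- and 1.5, 1.84 and 2.24 CPM in Wt, with 2 of 3 tested genes on the higher side, and lymphocyte genes overlapped too (0.901 to 2.1 against 1.37 to 1.82 CPM). No gene of these lists passed edgeR's test (smallest adjusted p 1). Their part in the result was not tested.

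After diabetic pregnancy the genotypes overlapped for all 5 members, where 4.32% of genes were higher and 3.62% lower without overlap. Hbb-bs differed by -0.75 on the log2 scale (Hif1a+/- against Wt, SE 0.84, adjusted p = 0.885 by edgeR), and the 5 differences lay between -0.94 (Slc4a1) and -0.66 (Hbb-bt). The sign rested on replicate 50 for 4 of the 5 genes. Without it Hbb-bs differed by 0.15, Hbb-bt by 0.45, Alas2 by 0.20 and Slc4a1 by 0.03, with Hba-a1 at -0.03. Averaged over both pregnancies, Hif1a+/- differed from Wt by -1.81 (SE 0.61) for Hbb-bs, -1.91 (SE 0.66) for Alas2 and -3.45 (SE 1.16) for Slc4a1, each with an adjusted p of 0.999. Without replicate 25 these were -0.70, -0.67 and -1.34.

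Between diabetic and non-diabetic pregnancies no red cell gene passed edgeR's test, and in Wt hearts the direction of the difference turned when replicate 25 was left out. No member was without overlap there, against 2.14% of genes higher and 3.4% lower, nor in Hif1a+/- hearts, against 11.2% higher and 13.2% lower. In Wt hearts with all libraries, the log2 differences after diabetic pregnancy were -1.57 (SE 0.85) for Hbb-bs, -1.63 (SE 0.82) for Hba-a1, -1.86 (SE 0.97) for Hbb-bt, -1.74 (SE 0.90) for Alas2 and -3.22 (SE 1.22) for Slc4a1 on the log2 scale, each with an adjusted p of 1. Without replicate 25 all 5 turned to the other direction, to 0.66 (SE 0.58), 0.55 (SE 0.53), 0.81 (SE 0.67), 0.74 (SE 0.60) and 1.02 (SE 0.76), again with an adjusted p of 1. In Hif1a+/- hearts, whose libraries include neither replicate 25 nor replicate 50, the 5 differences lay between 0.40 (Hba-a1, SE 0.81) and 1.80 (Slc4a1, SE 2.18), with Hbb-bs at 0.54 (SE 0.84, adjusted p = 0.816). There replicates 66 and 72 were above all 3 non-diabetic libraries and replicate 77 below them.

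**Figure D3:**
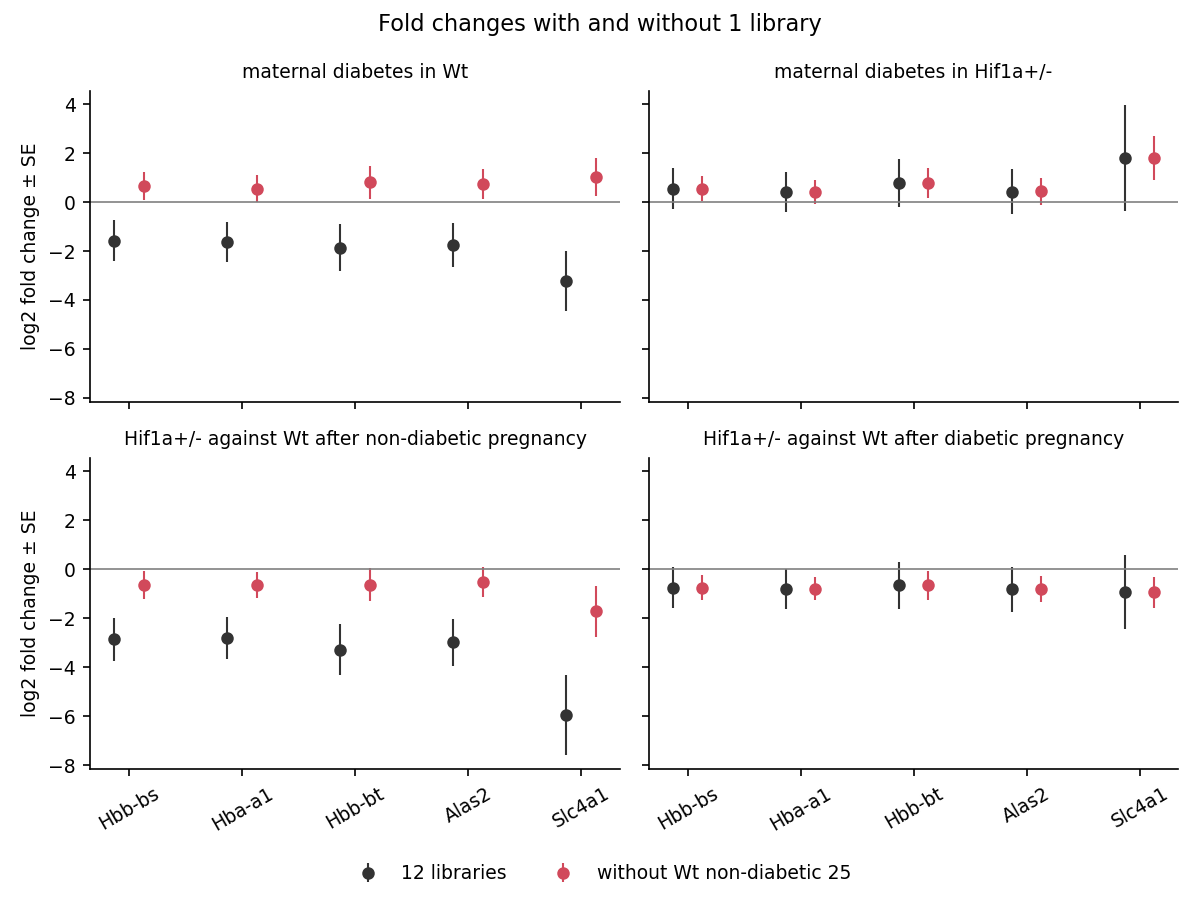
Log2 fold changes with their standard errors from edgeR for 5 red cell genes in the 4 pairwise comparisons, with all 12 libraries (dark) and without Wt non-diabetic replicate 25 (red). In Wt hearts the 5 values for maternal diabetes lie below 0 with the library and above 0 without it, and after non-diabetic pregnancy the 5 Hif1a+/- values stay below 0 in both fits.

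The effect of diabetes was not shown to differ between genotypes. For Hbb-bs the interaction was 2.11 (SE 1.19, adjusted p = 0.998) and became -0.11 (SE 0.76) without replicate 25. For Slc4a1 it was 5.02 (SE 2.42) and became 0.78 (SE 1.20). In the test of any difference among the 4 groups, the 5 adjusted p-values from edgeR lay between 0.521 (Slc4a1) and 0.731 (Hbb-bt). Over the 8 comparisons edgeR called 0 members and 0 genes. All 5 members had an unadjusted p below 0.05 in 3 of them (genotype after non-diabetic pregnancy, genotype averaged, and any difference), and Slc4a1 also in maternal diabetes in Wt. Without replicate 25, edgeR gave such a p to 0, 1 and 1 members in these 3, and to 0 in maternal diabetes in Wt. DESeq2 gave no adjusted p for Hba-a1, Hbb-bt, Alas2 and Slc4a1, so it could not call them. Its adjusted p for Hbb-bs was between 0.566 and 1. Of all genes with an adjusted p it called 0.0148% and 1.44% for maternal diabetes in Wt and in Hif1a+/-, 0.155% for genotype after diabetic pregnancy, 1.46% and 0.0259% for diabetes and genotype averaged, 0% for the interaction and 0.76% for any difference. limma-voom with sample quality weights called 0 members.

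Whether edgeR called the members changed with the filter on low counts. Without it, edgeR called the 5 members in maternal diabetes in Wt (0.476% of 27093 genes called), genotype after non-diabetic pregnancy (0.122%), genotype averaged (0.284%), the interaction (0.288%) and any difference (2.54%). It called 2 of them, Hba-a1 and Alas2, for diabetes averaged (2.19%), and 0 for diabetes in Hif1a+/- (2.19%) and genotype after diabetic pregnancy (0.812%), which had 3 and 4 members at an unadjusted p below 0.05. For Hbb-bs in Hif1a+/- against Wt after non-diabetic pregnancy the adjusted p became 3.88e-15, while the fold was nearly the same (-2.86 against -2.87) and the standard error dropped from 0.89 to 0.28. The unfiltered calls also changed direction with 1 library. For maternal diabetes in Wt, Hbb-bs was called lower with replicate 25 (-1.56, adjusted p = 4.22e-05) and higher without it (0.65, adjusted p = 7.08e-05), and 4 members were called without it (0.771% of genes). Also without a filter and without replicate 25, edgeR called 3 members for genotype after non-diabetic pregnancy (0.0997%), each lower, 4 for genotype after diabetic pregnancy (1.33%), 4 for diabetes in Hif1a+/- (2.81%), 5 for diabetes averaged (2.28%), 4 for genotype averaged (0.369%), 0 for the interaction (0.543%) and 5 for any difference (2.95%). With the filter, the members were among the most variable of all tested genes within groups. Their biological coefficient of variation was between 65.1% (Hba-a1) and 96% (Slc4a1), against 13.7% for all genes in common, and their quasi-likelihood dispersions were at or above the 99.84th percentile.

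Other genes named as erythroid did not follow as a group. The list of erythroid factors and late erythroid genes had 18 genes in the files, of which 11 were tested, and its sum in replicate 25 was 1.29-fold the median of the other 11 libraries, the highest of the 12. The genes with the highest levels in it, Prdx2 (a peroxidase), Tfrc (the transferrin receptor) and Bnip3l (mitochondrial removal), are also used in other tissues. Prdx2 was at 398 CPM in replicate 25 and between 390 and 515 CPM in the others. Bpgm, which makes the red cell metabolite that lowers the oxygen affinity of haemoglobin, was at 114 CPM in replicate 25 against 21.5 to 36.7. Trim10 had 83 counts in replicate 25 and at most 8 elsewhere. Gata1 and Klf1, the erythroid transcription factors, stayed at or below 0.4 CPM in every library.

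Of 19 genes of the red cell membrane and skeleton, 13 were tested, and their sum in replicate 25 was 1.04-fold the median of the others. Sptan1, Sptb and Ank1, spectrins and ankyrin that heart muscle also makes, were at 371, 346 and 308 CPM there and within 259 and 425 CPM over the other libraries, with Sptb just above its highest value elsewhere (340). Trim10, Gata1 and Klf1 were picked out after their values were seen, as were, of those that follow, Hmox1, Gp9 and Cd3d. The sum of 12 haem synthesis genes was 1.06-fold and of 12 haem and haemoglobin clearance genes 1.10-fold in replicate 25. In haem synthesis, Alas1, the enzyme of other tissues, was at 272 CPM (207 to 373 elsewhere), while Fech, which inserts the iron, was at 191 CPM (125 to 161 elsewhere). Among clearance genes Hmox1, which breaks haem down, was at 14.9 CPM (12.4 to 23.8 elsewhere).

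In none of these 4 lists did a gene pass edgeR's test in any comparison. After non-diabetic pregnancy, 7 of 11 erythroid genes, 5 of 13 membrane genes, 8 of 12 haem synthesis genes and 8 of 11 clearance genes were on the lower side in Hif1a+/-, with medians of -0.21, 0.03, -0.03 and -0.09 (log2), and the median over all tested genes was 0.00. For maternal diabetes in Hif1a+/- hearts, 10 of 11 clearance genes were on the higher side (median 0.21, against -0.01 over all genes, smallest adjusted p 0.266). The summed level of that list overlapped, at 2766 to 3288 CPM after diabetic and 2644 to 2838 CPM after non-diabetic pregnancy. The other lists are not given for this comparison.

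Embryonic globins were not detected. Hba-x, Hbb-y, Hbb-bh1 and Hbb-bh2 had a count of 0 in every library, which allows up to 3 counts in each. The theta globins Hbq1b and Hbq1a had 0 to 4 and 0 to 5 counts in 11 libraries and 17 and 11 counts in replicate 25. Myoglobin (Mb), the oxygen store of heart muscle and not of blood, was at 15145 CPM in replicate 25, near the low end of the others (15046 to 21403 CPM).

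Other blood cell markers were followed beside the members. The summed level of 10 neutrophil genes was 32.3 CPM in replicate 25 and between 2.31 and 16.9 CPM elsewhere, that of 9 platelet genes 33.5 CPM against 16.4 to 30.8. The calprotectin genes S100a9 and S100a8 were at 10.2 and 6.35 CPM there, against at most 3.22 and 2.56. Of 3 tested neutrophil genes, these 2 were highest in replicate 25. Lcn2, the other tested gene and the highest of the list on average, was not (6.35 CPM, within 1.68 to 10.8). Among the untested ones, Cxcr2 had 6 counts there and up to 13 elsewhere, and Ly6g had 0 there. Ltf and Ngp, proteins of neutrophil granules, had 49 and 47 counts in replicate 25 and at most 4 and 5 in any other library, and were picked out after their values were seen. Of 7 tested platelet genes, 6 were highest in replicate 25, among them Ppbp (7.9 CPM against at most 5.16) and Gp9 (2.18 against at most 1.14), whereas Pf4 was not (11.8 CPM, within 7.54 to 18.1). The 5 blood monocyte genes (2.24 CPM, within 1.31 to 6.36) and the 10 lymphocyte genes (1.37 CPM, within 0.901 to 3.12) were not high in it, and the T cell marker Cd3d was at 0 in at least 1 library. In replicate 77, the library with the least haemoglobin, monocyte genes ranked first of the 12, and platelet and neutrophil genes came next (ranks 2 and 3), so these cells did not follow haemoglobin through all libraries. Endothelium (1.08-fold the median of the others) and ventricular cardiomyocyte markers (0.945-fold) in replicate 25 were within the range of the other libraries, whereas the 5 fibroblast markers summed to 1154 CPM (0.788-fold), below the lowest other library (1202 CPM).

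**Figure D4:**
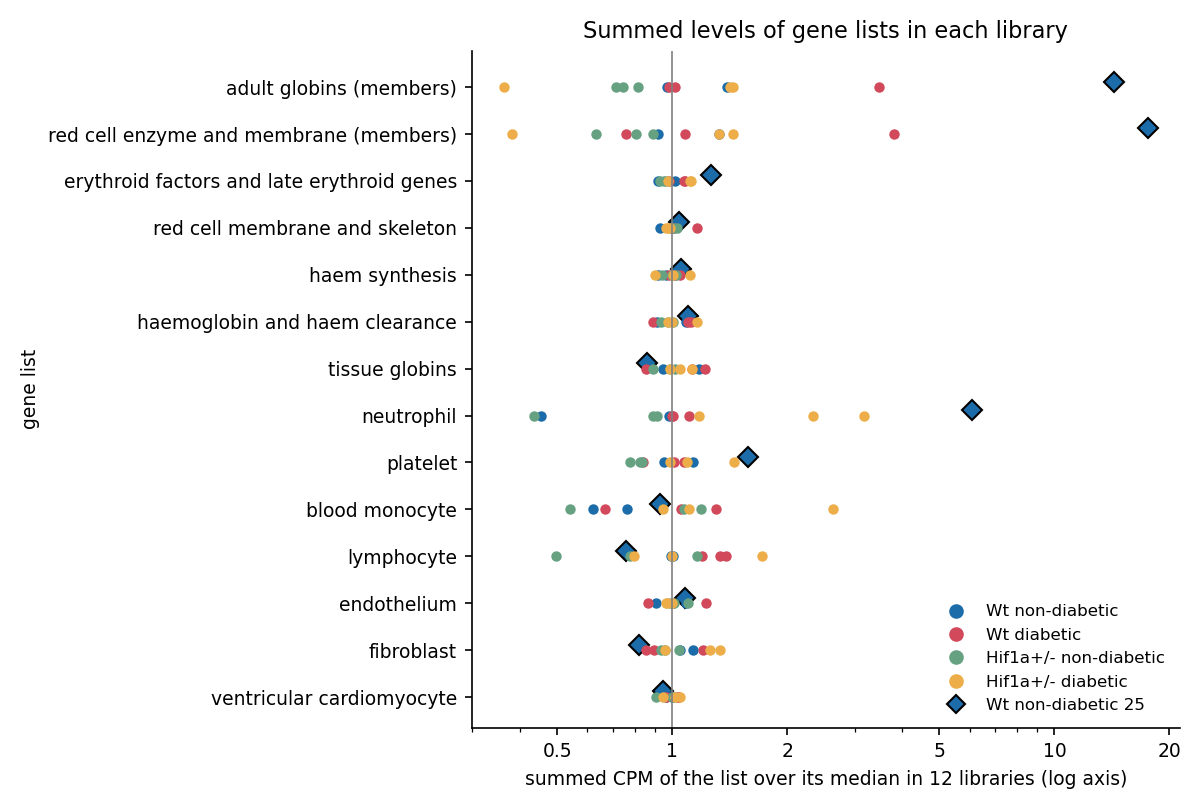
Summed CPM of 14 gene lists in each library, divided by the list's median over 12 libraries, on a log axis. Points are libraries coloured by group, and the diamond is Wt non-diabetic replicate 25. The diamond lies far to the right for the members and the neutrophil list (6.09-fold the median of the other 11), and close to 1 for haem synthesis, the membrane and skeleton list and ventricular cardiomyocytes.

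Among the 10 genes whose levels were most like the haemoglobin sum over 12 libraries were Tent5c (r = 0.973) and Bpgm (0.937), followed by Isg20, Mkrn1, Car2, Cd24a, E2f2, Lrrc10b and Dlx1 (0.836 to 0.898), by Pearson's r of log2(CPM + 1) among 14701 tested genes. These are descriptions, since replicate 25 alone stood high in most of them. Over the 11 libraries without it, 3 of the 10 were again among the 10 most alike, with Tent5c at 0.916 and Bpgm at 0.895, and Cd24a was at 0.484. Tent5c, a poly(A) polymerase, was at 34.5, 2.68 and 2.04 CPM in Wt non-diabetic replicates 25, 42 and 89, at 9.41, 3.2 and 1.77 CPM in Wt diabetic replicates 50, 7 and 80, and at 3.21, 2.59 and 0.574 CPM in Hif1a+/- diabetic replicates 66, 72 and 77. In Hif1a+/- non-diabetic replicates 14, 32 and 44 it was at 2.22, 1.8 and 1.86 CPM. Like the 5 tested members and Bpgm, Tent5c was highest in replicate 25, next in replicate 50 and lowest in replicate 77. Unlike those members, it overlapped between the genotypes after non-diabetic pregnancy. Of the genes above 1 CPM, 16 were more than 2-fold above every other library in replicate 25, and 5 of them were the tested members. Replicates 80 and 77 had 21 and 14 such genes, and 0 of these were members.

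**Figure D5:**
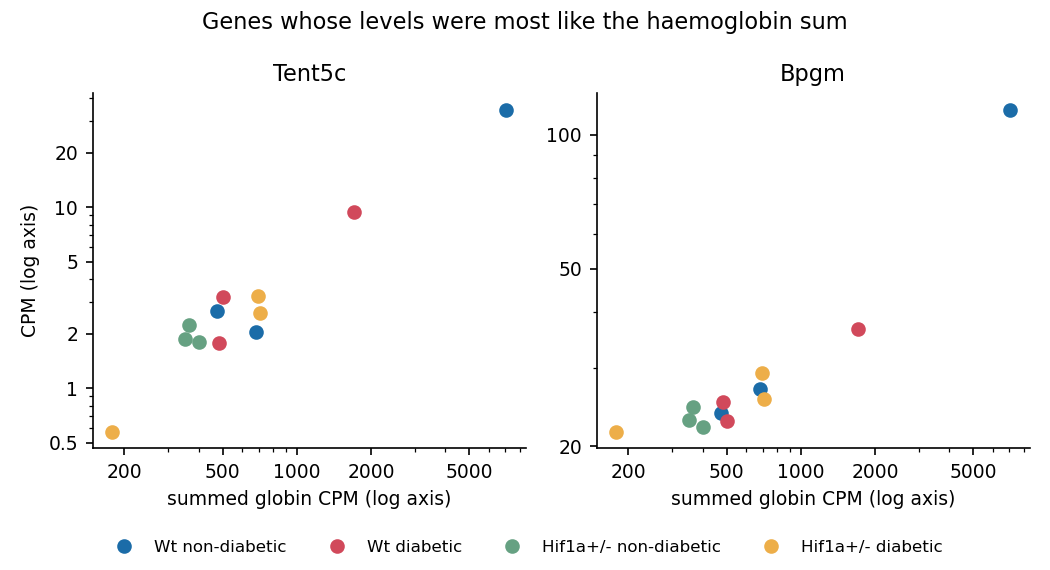
CPM of Tent5c and Bpgm against the summed CPM of the 4 adult globin genes in 12 libraries, both on log axes, coloured by group. Replicate 25 is the top right point in each panel. In both genes replicate 50 is next and replicate 77 lowest, at 0.574 CPM for Tent5c.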

How the data were processed

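The authors prepared 3′-seq libraries from 12 LVs, removed ribosomal and mitochondrial reads, and aligned 75-base reads to GRCm38 with STAR (version 2.5.2b). Reads were assigned to genes of an earlier GENCODE annotation by htseq-count in union mode. The deposited counts are whole numbers without normalization. Tally lines for unassigned reads were left out of the library totals, which give the depth. The authors' normalized tables were not used. Symbols came from a later GENCODE annotation of GRCm38 (46488 of 46983 identifiers matched).

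Groups came from the sample titles, with the animal number as replicate name. edgeR's quasi-likelihood test (version 4.0.16, R 4.3.3) was run on all 12 libraries with TMM factors, the default filter by group (14706 of 27093 genes kept) and 1 mean per group, with Benjamini-Hochberg adjustment over all genes tested and a threshold of 0.1. The study used DESeq2. Standard errors were derived from the fold change and F statistic. Correlations used a pseudocount of 1 CPM. The scripts were tested on simulated data. Named genes were the 6 members, the 3 highest of each list with any past the threshold, the 10 most alike, Hif1a and tissue markers, and some genes that the rule named are not reported here. Members and lists were chosen with earlier results of these data known. Alternatives were DESeq2 (1.42.0) and its size factors, no filter, a robust fit, limma-voom (limma 3.58.1), summed paralogs, library sizes without the members, each replicate left out in turn, and 0.1 in place of 1 as pseudocount. Levels and likeness without replicate 25, the unfiltered fit and the overlap of groups without it, were added after seeing the data. Python 3.11.15 with scipy 1.17.1 and pandas 2.3.3 did the remaining steps.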

Additional observations from a re-analysis of the deposited data

How the results depend on the processing

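With 3 mice in a group, 1 library set the sign of several differences, and low counts limited Slc4a1 and Hba-a2. Members called by edgeR moved from 0 in each comparison to 5 without a filter on low counts for maternal diabetes in Wt, genotype after non-diabetic pregnancy, genotype averaged, the interaction and any difference, and to 2 for diabetes averaged. The cause was not tested. They stayed at 0 in the settings that kept the filter. All 15 member pairs were correlated past the threshold with a pseudocount of 0.1, with DESeq2 size factors and without each library. Genes called, 0 by edgeR throughout, were 4, 201, 1, 24, 203, 7 and 130 by DESeq2 for diabetes in Wt, diabetes in Hif1a+/-, genotype after non-diabetic and after diabetic pregnancy, diabetes averaged, genotype averaged and any difference (0 for the interaction). Without the filter they were 129, 592, 33, 220, 593, 77 and 689, with 78 for the interaction, and limma-voom called 937, 1 and 39 for diabetes in Hif1a+/-, genotype after diabetic pregnancy and diabetes averaged. Leaving out 1 replicate gave 0 to 38 genes for diabetes in Hif1a+/- (38 without Hif1a+/- diabetic replicate 72), 0 to 21 for diabetes averaged (21 without Wt diabetic replicate 50), 0 to 2 for genotype after diabetic pregnancy and for genotype averaged, 0 to 1 for the interaction and 0 to 5 for any difference (5 without Wt diabetic replicate 7). Without the filter and without Wt non-diabetic replicate 25, the genes called were 209, 761, 27, 359, 619, 100, 147 and 799 for diabetes in Wt, diabetes in Hif1a+/-, genotype after non-diabetic and after diabetic pregnancy, diabetes averaged, genotype averaged, the interaction and any difference, and the members called were 4, 4, 3, 4, 5, 4, 0 and 5.

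Log2 differences that changed sign did so when 1 library was left out, except Hba-a1 for diabetes in Hif1a+/- (-0.0595) and Slc4a1 for diabetes averaged (0.15) with limma-voom. For diabetes in Wt the ranges over the 12 fits that each left out 1 library were -2.39 to 0.55 for Hba-a1, -2.46 to 0.66 for Hbb-bs, -2.96 to 0.81 for Hbb-bt, -2.75 to 0.74 for Alas2 and -4.18 to 1.02 for Slc4a1. For diabetes averaged they were -0.99 to 0.48, -0.96 to 0.60, -1.09 to 0.80, -1.16 to 0.59 and -1.19 to 1.41 in the same gene order. For the interaction they were -0.14 to 2.79, -0.11 to 3.01, -0.0186 to 3.74 and -0.30 to 3.18 for the first 4 genes. The highest or lowest end without 1 library was in these 3 comparisons the fit without Wt non-diabetic replicate 25. For genotype after diabetic pregnancy they were -1.06 to 0.15 for Hbb-bs, -1.04 to 0.45 for Hbb-bt, -1.19 to 0.20 for Alas2 and -1.56 to 0.0306 for Slc4a1, the upper end being the fit without Wt diabetic replicate 50. Without the filter and that replicate 25 the same signs turned, to 0.54, 0.65, 0.80, 0.73 and 1.01 for diabetes in Wt, 0.47, 0.60, 0.79, 0.58 and 1.40 for diabetes averaged and, for the first 4 genes, -0.14, -0.103, -0.0131 and -0.30 for the interaction. Of the 10 genes most like haemoglobin, 7 were shared with a pseudocount of 0.1 and 3 without replicate 25. No paired analysis was possible because the animal numbers in the titles are not shared between groups and the replicate tag of the labels only numbers the groups.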
